A study of Homo sapiens with 3 samples.

Results

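The glucocorticoid receptor gene NR3C1 and 9 genes known as its direct targets were followed in HGC-27 cells, an established human gastric cancer line. The 10 genes, FKBP5, TSC22D3, PER1, ZBTB16, KLF9, SGK1, PDK4, CEBPD, ERRFI1 and NR3C1, were chosen by gene symbol and matched 10 of the 58735 genes in the deposited expression table. There were 3 RNA-sequencing libraries of total RNA: 1 from cells with a control short hairpin RNA (shControl, genotype given as WT) and 2 from cells with hairpins against the deubiquitinase gene USP16 (shUSP16-1 and shUSP16-2, genotype given as shUSP16). All 3 were grown in medium with 10% fetal bovine serum, and the same extraction text stands on all 3: 1 µM dexamethasone and 0.5 mM isobutylmethylxanthine up to day 2, then 10 µg/ml insulin for 2 days. The growth text names none of these agents, and the labels leave it unclear whether these cells received the mix. No library of these cells labelled as free of the mix was analysed here, so a level set by the mix and the cells' own level cannot be told apart, and each level is described as it stands.

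The glucocorticoid receptor is a ligand-activated transcription factor. Without hormone it is held in the cytoplasm by HSP90 and its co-chaperones. Cortisol or the synthetic agonist dexamethasone releases it to the nucleus, where it binds a palindromic response element and switches genes on or, by other routes, represses inflammatory genes. Several of its targets feed back on it: FKBP5 is a co-chaperone that lowers its affinity for hormone. Dexamethasone, isobutylmethylxanthine (an inhibitor of cyclic AMP breakdown) and insulin together form the usual cocktail for turning preadipocytes into adipocytes.

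The starts of these genes were searched for the receptor's classical response element. RefSeq windows on GRCh38.p14, from 250 bases before to 50 bases after an annotated start, were available as 20 windows for 8 of the 10 genes, with ZBTB16 and CEBPD not matched. The element searched was AGAACA, then 3 bases of any kind, then TGTTCT, a palindrome that reads the same on both strands. It was in 0 of the 20 windows, against 0.00286% of all 34943 windows, and with up to 2 mismatches in its 12 fixed letters it was again in 0 of 20, against 1.41% of all. The lone hexamer AGAACA, or TGTTCT on the other strand, was in 3 of the 20 windows, against 14.8% of all. The full element contains the hexamer, so the searches overlap. The 3 stretches that hold the hexamer are shown with it in capitals, each written 5′ to 3′ on the minus strand, the strand of the gene.
FKBP5 (chr6:35728538-35728623): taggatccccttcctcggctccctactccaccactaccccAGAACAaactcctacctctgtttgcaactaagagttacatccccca
SGK1 (chr6:134177812-134177896): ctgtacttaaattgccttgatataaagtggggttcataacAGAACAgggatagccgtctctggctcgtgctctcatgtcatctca
PDK4 (chr7:95596717-95596766): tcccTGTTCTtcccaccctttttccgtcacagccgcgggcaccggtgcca
The hexamer began at an annotated start of FKBP5, 5 bases after one of SGK1 and 246 bases before that of PDK4. The other windows of FKBP5 and SGK1 held none. The 3 genes differed widely in level: FKBP5 was at 7.11 to 10.6 FPKM (fragments per kilobase of gene length, scaled to library size), SGK1 at 1.87 to 2.46, and PDK4 had no read. The CRE, the palindromic element of the cyclic AMP responsive factor CREB, was in 0 of the 20 windows, against 1.84% of all. These matches describe the letters in 300 bases around a start and say nothing of the enhancers through which many of these genes are known to be regulated.

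The receptor's own start region was CpG-rich. NR3C1 had 7 windows, holding 0 to 51 CpG dinucleotides. The window with 51, at chr5:143403637-143403936 on the minus strand, had 82.3% G or C and more CpGs than 99.0% of all windows, whose median was 14 CpGs and 58.7% G or C. It is shown, with each CG in capitals, because it covers an annotated start of a gene that was read almost nowhere in these libraries.
NR3C1: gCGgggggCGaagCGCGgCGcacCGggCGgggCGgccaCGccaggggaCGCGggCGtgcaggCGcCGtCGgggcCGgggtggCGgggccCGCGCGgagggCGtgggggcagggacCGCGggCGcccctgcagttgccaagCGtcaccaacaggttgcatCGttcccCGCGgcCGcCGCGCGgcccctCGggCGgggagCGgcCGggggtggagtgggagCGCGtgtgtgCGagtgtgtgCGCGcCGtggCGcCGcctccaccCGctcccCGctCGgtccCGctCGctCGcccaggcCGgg
DNA methylation was not measured in the data used here.

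The libraries were deep and of like size: 29530581 to 31187845 whole reads could be recovered from the deposited FPKM values. The hairpin target was checked first. USP16 was at 6.28 FPKM in shControl, 4.29 in shUSP16-1 and 5.98 in shUSP16-2, a ratio to shControl of 0.683 (95% exact binomial interval 0.621 to 0.749) and 0.952 (0.875 to 1.04). The interval of the library labelled shUSP16-2 includes 1 with the deposited scaling, but its ratio with sums of reads was 0.876 (0.805 to 0.953), below 1. limma gave a log2 difference of -0.26 (SE 0.20, adjusted p = 0.564). Defining gastric epithelial markers were near 0: 0 of 11 reached a mean of 1 FPKM, 4 (MUC5AC, KRT19, TFF1 and TFF2) had no read, and their summed level was 0.997, 0.537 and 0.297 FPKM in shControl, shUSP16-1 and shUSP16-2. The 4 mesenchymal markers (VIM, CDH2, FN1 and ZEB1) summed to 164, 167 and 189 FPKM in shControl, shUSP16-1 and shUSP16-2. Only 2 of the 4 reached a mean of 1 FPKM, and VIM alone was at 155 to 180 FPKM. The fibroblast collagen COL3A1 was at 173 to 248 FPKM. The 4 fibroblast markers summed to 254, 256 and 342 FPKM, with COL1A1 at 52.2, 71.1 and 78.4, higher in both libraries labelled shUSP16; their part in the results was not tested. Of 8 adipocyte markers only CEBPA reached a mean of 1 FPKM, ADIPOQ and LEP had no read, and the sums were 3.44, 4.18 and 2.88 FPKM. Immune markers (summed 0.645 to 0.867 FPKM) and endothelial markers (0.0124 to 0.0207 FPKM) were near 0, with PTPRC and CD3E at 0 reads. In bulk RNA, fewer cells of a type and less RNA per cell cannot be told apart.

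NR3C1 was nearly unread. The gene (ENSG00000113580, GRCh38 chr5:143277931-143435512, minus strand) has 16 annotated transcripts and 20 merged exon blocks spanning 9172 bases of exon. No read fell on it in shControl, none in shUSP16-1, and 2 reads in shUSP16-2 came to 0.00703 FPKM. At these depths 0 reads allow a level of up to 0.01005 FPKM in shControl and 0.0109 in shUSP16-1, and 3 reads in shUSP16-2 would be 0.0106 FPKM. These limits cover counting error only. All 3 libraries were at or under that floor, so no fold change between them is given. Among protein-coding genes the receptor stood low: 4053 of 19951 (20.3%) had as few reads over the 3 libraries, or fewer, and 3390 of these had none. By comparison 11069 reached a mean of 1 FPKM.

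The 5 protein-coding genes whose starts lie nearest to that of NR3C1 on chromosome 5 differed among themselves. ARHGAP26, whose start lies 665 kb away, was at 0.537, 0.456 and 0.538 FPKM in shControl, shUSP16-1 and shUSP16-2. YIPF5, a Golgi membrane protein gene 735 kb away, was at 11.6, 12.4 and 11.5 FPKM. KCTD16 was at 0.0150, 0.0164 and 0.0181 FPKM, and HMHB1 and FGF1 had 0 reads in all 3. Of the 5 only YIPF5 was above 1 FPKM. The 3 genes whose differences from shControl lay nearest to those of NR3C1, by the largest gap over the 2 libraries labelled shUSP16, were FOXK2, KCTD2 and MICB. Their gaps were 0.0036 to 0.0047 on the log2(FPKM + 1) scale, but 1629 genes lay within 0.1 of a receptor that was flat at 0, so the likeness singles out no gene.

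NR3C2, ESR2, PGR and ESR1 were all under 1 FPKM. NR3C2, the mineralocorticoid receptor, which also binds glucocorticoids, was at 0.423, 0.598 and 0.420 FPKM (91, 118 and 86 reads). That was at least 42.1-fold, 54.6-fold and 39.8-fold higher than the level of 3 NR3C1 reads in the same library. The estrogen receptor gene ESR2 was lower still, at 0.105, 0.0896 and 0.114 FPKM. The progesterone receptor gene PGR had 0, 10 and 0 reads and ESR1 had 2, 0 and 2.

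**Figure D1:**
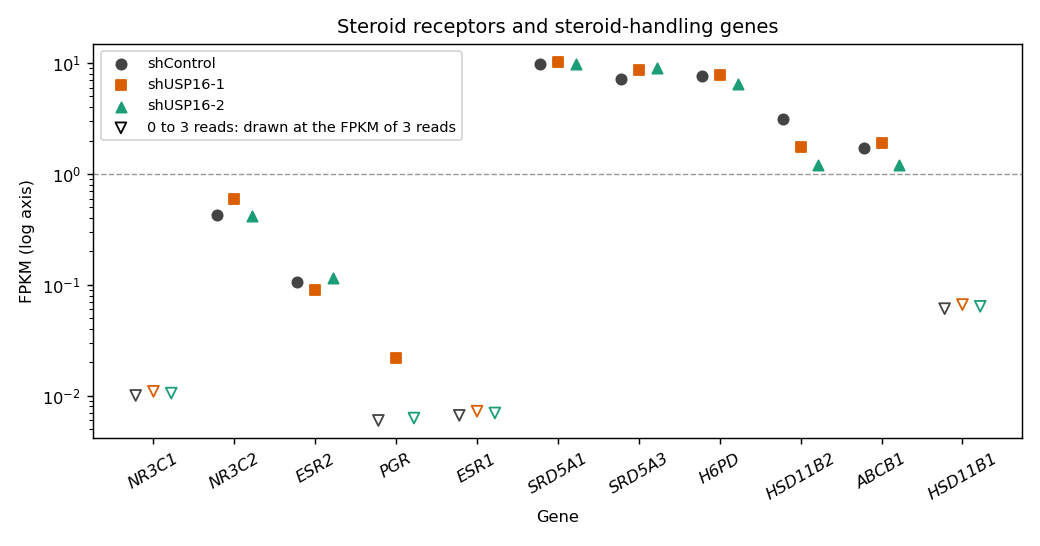
FPKM (log axis) of 5 steroid receptor genes and of genes that handle steroids, 1 point per library; open triangles are libraries with 0 to 3 reads, drawn at the level of 3 reads, and the dashed line is 1 FPKM. NR3C1 sits at that floor in all 3 libraries, while NR3C2 lies between 0.420 and 0.598 FPKM.

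Of the 9 target genes 7 were read at 1.87 FPKM or more in every library. By mean FPKM, a level per gene length, the order was KLF9, TSC22D3, FKBP5, CEBPD, ERRFI1, PER1 and SGK1, followed by ZBTB16, NR3C1 and PDK4 at the floor. The ranges over the 3 libraries overlapped for KLF9 and TSC22D3, for CEBPD and ERRFI1, and among the last 3, while the other neighbours in the order did not overlap. For scale, the median of protein-coding genes averaging 1 FPKM or more was 6.95 in shControl, 7.20 in shUSP16-1 and 7.32 in shUSP16-2. KLF9 and TSC22D3 lay above that median in all 3 libraries, FKBP5 too, and the other 4 below it.

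**Figure D2:**
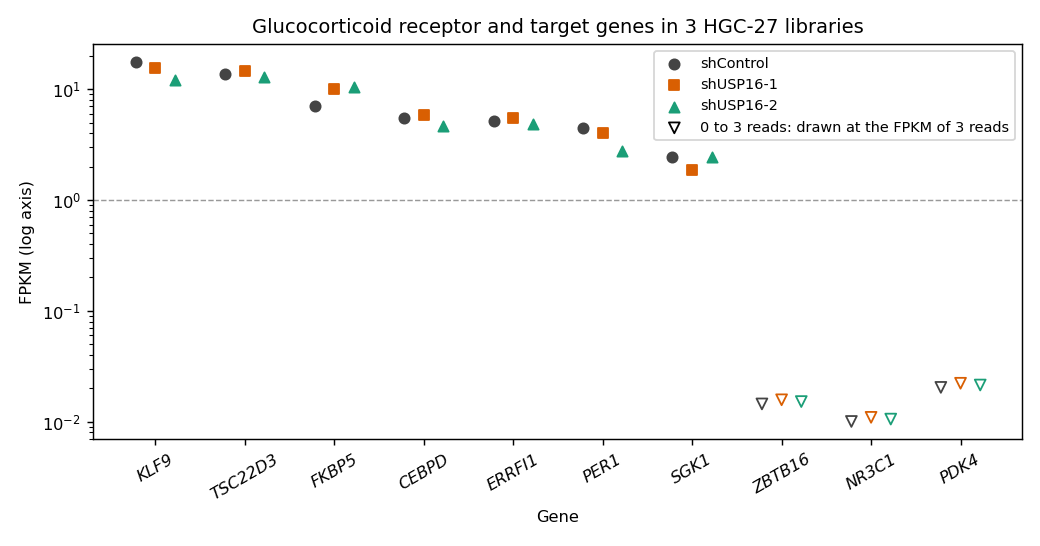
FPKM (log axis) of NR3C1 and 9 target genes, 1 point per library, ordered by mean; open triangles are libraries with 0 to 3 reads, drawn at the level of 3 reads, and the dashed line is 1 FPKM. The 7 read genes lie between 1.87 and 17.6 FPKM, and ZBTB16, NR3C1 and PDK4 lie at the floor in all 3 libraries.

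The top 2 genes were close in level. KLF9 (ENSG00000119138, chr9:70384597-70414624, minus strand, 1 annotated transcript) encodes a Krüppel-like repressor induced by glucocorticoids in many tissues. It was at 17.6 FPKM in shControl, 15.5 in shUSP16-1 and 12.02 in shUSP16-2, above 82.3% to 89.8% of protein-coding genes. Both libraries labelled shUSP16 were below shControl, with a mean of 13.8 ± 2.46 FPKM (SD, n = 2). The ratios were 0.881 (95% exact binomial interval 0.834 to 0.930) and 0.683 (0.645 to 0.724). Against the spread between the 2 libraries limma did not call it (log2 difference -0.34, SE 0.18, adjusted p = 0.423).

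TSC22D3 (ENSG00000157514, chrX:107713221-107777342, minus strand, 17 transcripts) encodes the glucocorticoid-induced leucine zipper GILZ, which mediates part of the anti-inflammatory action of the hormone. Its level was 13.7, 14.5 and 12.9 FPKM in shControl, shUSP16-1 and shUSP16-2, so shControl lay between the other 2. Its log2 difference was -0.0045 (limma, SE 0.13, adjusted p = 0.990). The gene-level value sums its transcripts, only some of which are known to be hormone-driven, and these were not told apart.

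FKBP5 was the one target higher in both libraries labelled shUSP16. The gene (ENSG00000096060, chr6:35573585-35728583, minus strand, 13 exon blocks) encodes the co-chaperone FKBP51, whose transcript is among the most used read-outs of receptor activity. It was at 7.11 FPKM in shControl (2460 reads), 9.97 in shUSP16-1 (3166 reads) and 10.6 in shUSP16-2 (3480 reads). The last 2 averaged 10.3 ± 0.420 FPKM (SD, n = 2) and their ratios to shControl were 1.402 (1.33 to 1.48) and 1.49 (1.41 to 1.56). In limma the log2 difference was 0.47 (SE 0.12, unadjusted p = 0.0121, adjusted p = 0.280), which did not pass. With voom on the recovered reads it was 0.53 (SE 0.14, adjusted p = 0.0422), which did, and over 10 fits run the adjusted p ranged from 0.0422 to 0.363. Scaling each library to its sum of reads gave 1.31 (1.25 to 1.38) and 1.37 (1.30 to 1.44), both above 1.

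CEBPD and ERRFI1 did not move one way. CEBPD (ENSG00000221869, chr8:47736909-47739086, minus strand, a single exon) encodes a C/EBP family factor that glucocorticoids induce early in adipocyte differentiation. It was at 5.54, 5.90 and 4.61 FPKM in shControl, shUSP16-1 and shUSP16-2. The ratio of shUSP16-2 was 0.831 (0.714 to 0.967) and that of shUSP16-1 was 1.06 (0.922 to 1.23), on either side of 1. The log2 difference was -0.07 (limma, SE 0.17, adjusted p = 0.863). ERRFI1 (ENSG00000116285, chr1:8004404-8026308, minus strand) encodes MIG6, a feedback inhibitor of the EGF receptor. It was at 5.14, 5.47 and 4.86 FPKM, again with shControl in the middle, and its log2 difference was 0.0050 (limma, SE 0.14, adjusted p = 0.990). An antisense gene across ERRFI1 had 35 reads over all libraries and NCBP2L, which overlaps TSC22D3 on the other strand, had 3. The sources used here do not give the strand setting, so such reads cannot be told apart from those of the gene.

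PER1 (ENSG00000179094, chr17:8140472-8156506, minus strand), a repressor of the circadian clock with a known glucocorticoid response element, was at 4.46 FPKM in shControl, 4.01 in shUSP16-1 and 2.76 in shUSP16-2. Both libraries labelled shUSP16 were lower, at 3.39 ± 0.887 FPKM (SD, n = 2), with ratios of 0.901 (0.821 to 0.988) and 0.619 (0.559 to 0.686). As for KLF9, shUSP16-2 was the lower of the 2 and the spread between them was wide (limma log2 difference -0.33, SE 0.21, adjusted p = 0.493). SGK1 (ENSG00000118515, chr6:134169246-134318112, minus strand, 30 transcripts), a kinase that activates epithelial sodium transport, was at 2.46, 1.87 and 2.46 FPKM. Only shUSP16-1 was below shControl, with a ratio of 0.759 (0.680 to 0.847), and shUSP16-2 had a ratio of 1.00 (0.905 to 1.11). The log2 difference of SGK1 was -0.14 (limma, SE 0.19, adjusted p = 0.770).

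ZBTB16 and PDK4 were at the floor. ZBTB16 (ENSG00000109906, chr11:114059593-114250676, plus strand), which encodes the zinc finger factor PLZF and is among the genes most strongly induced by dexamethasone in many cell types, had 0, 2 and 0 reads, against 3 reads being worth 0.0145 to 0.0158 FPKM. PDK4 (ENSG00000004799, chr7:95583499-95596491, minus strand), a kinase that inhibits pyruvate dehydrogenase and is induced by glucocorticoids and fasting, had 0 reads in all 3 libraries, which allows up to 0.0204, 0.0222 and 0.0214 FPKM. No fold change is given for either. The target genes thus fell into 2 classes of level with a gap between 1.87 FPKM, the lowest value of the 7 read genes, and 0.0105 FPKM, the highest of ZBTB16.

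**Figure D3:**
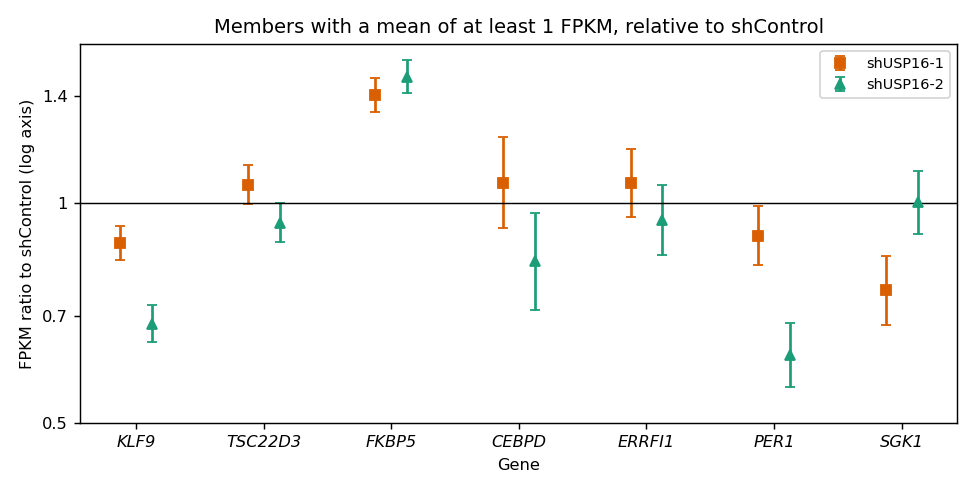
Ratio of FPKM to shControl (log axis) for the 7 target genes averaging 1 FPKM or more, with 95% exact binomial intervals that cover counting error only; both ratios of a gene share the 1 control library. FKBP5 lies above 1 in both libraries labelled shUSP16 (1.402 and 1.49), KLF9 and PER1 lie below 1 in both, and the other 4 do not lie to one side.

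Across the 10 genes, 7 passed the minimum mean of 1 FPKM and could be tested. 1 of the 7 (FKBP5) was higher than shControl in both libraries labelled shUSP16, where 44.9% of all 13852 genes tested were, and 2 (KLF9 and PER1) were lower in both, where 32.4% were. With each library scaled to its sum of reads the split was 1 higher and 6 lower, against 31.1% and 45.6% of all genes. That scaling therefore moved 4 of the 7 from neither side to lower. limma called 0 of the 7 and 0 of all genes (0%), with 1 of the 7 (FKBP5) and 2008 of all genes at an unadjusted p under 0.05. voom on recovered reads called 1 of the 7 (FKBP5, higher) and 2.51% of all genes, and with sums of reads 0 of the 7 and 4.02% of all genes (FKBP5 had adjusted p = 0.0753). The median log2 difference of the 7 was -0.07, beside 0.04 for all genes tested. By library the median of the 7 was 0.08 in shUSP16-1 and -0.08 in shUSP16-2. A single control library and 2 libraries labelled shUSP16 leave 1 residual degree of freedom, and nothing in the labels says the libraries came from separate cultures, so these p-values may measure technical spread alone.

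Transcripts of the proteins that fold and partner the receptor were mostly higher in both libraries labelled shUSP16. All 24 chaperones and coregulators were testable. In both libraries 21 were higher, where 44.9% of all genes were, and 2 (NCOA1 and NCOA3, receptor coactivators) lower, where 32.4% were. The remaining 1 was neither. limma called 0 of the 24, with 12 at an unadjusted p under 0.05, where 2008 of all 13852 genes were. voom called 3 of them higher (HSPA8, HSP90AA1 and ST13), where 1.47% of all genes were called higher. Over all genes tested the median log2 difference was 0.04, and over those averaging at least 5 FPKM it was 0.11. The list holds abundant genes, and shares among genes of like level were not computed. The median log2 difference of the 24 was 0.33, and 0.22 with libraries scaled to sums of reads. With that scaling 20 were higher and 4 lower, against 31.1% and 45.6% of all genes. HSP90AB1, the constitutive HSP90 that holds the receptor ready for hormone, was at 671 FPKM in shControl, 867 in shUSP16-1 and 914 in shUSP16-2 (limma log2 difference 0.41, SE 0.09, adjusted p = 0.280). HSP90AA1, the inducible form, was at 228, 314 and 363 FPKM. For HSP90AB1 and HSP90AA1 both libraries labelled shUSP16 lay above the single shControl library, a position that 44.9% of all genes tested held.

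HSPA8, the constitutive HSP70 that loads the receptor, was at 159, 264 and 303 FPKM (limma log2 difference 0.82, SE 0.12, adjusted p = 0.261; voom adjusted p = 0.00149). ST13, the HSP70-interacting protein HIP, was at 33.1, 54.3 and 53.2 FPKM, so the 2 libraries labelled shUSP16 were nearly equal (limma adjusted p = 0.272; voom adjusted p = 0.0088). FKBP4, which encodes FKBP52 and competes with FKBP51 for HSP90, was at 30.5, 36.03 and 41.9 FPKM, and HSPA4 at 34.0, 45.6 and 48.6 FPKM. FKBP5 was the lower of the FKBP51 and FKBP52 pair in every library. HSP90 and HSP70 genes have near-identical processed copies whose reads the counting could share, so their values are less certain. Their chaperone role is general and not specific to this receptor.

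Genes listed as handling glucocorticoids were present in part. Of 10 genes of glucocorticoid metabolism and export 6 were tested, 2 higher and 2 lower in both libraries. Among all genes tested 44.9% were higher and 32.4% lower in both. With libraries scaled to sums of reads 1 of the 6 was higher and 4 lower, against 31.1% and 45.6% of all genes. In shUSP16-1 alone, with the deposited scaling, 4 were higher and 2 lower, and in shUSP16-2 alone 2 were higher and 4 lower. HSD11B1, the enzyme that regenerates active cortisol, had 0 reads in all 3 libraries. HSD11B2, which inactivates cortisol, was at 3.11, 1.74 and 1.21 FPKM (271, 139 and 100 reads), lower in both libraries labelled shUSP16 (1.47 ± 0.377, SD, n = 2). limma did not call it (log2 difference -0.74, SE 0.21, adjusted p = 0.292), and voom gave adjusted p = 0.0575 with the deposited scaling and 0.0248 with sums of reads, where 3.02% of all genes were called lower. AKR1C1, a steroid reductase, was at 2.05, 1.08 and 0.891 FPKM (limma log2 difference -0.62, SE 0.22, adjusted p = 0.321; voom adjusted p = 0.0172), though its near-identical relatives could share reads. H6PD, which supplies the cofactor of HSD11B1, was at 7.66, 7.79 and 6.44 FPKM. SRD5A1, a steroid reductase, was at 9.79, 10.2 and 9.87 FPKM, the highest of the list, and SRD5A3 at 7.23, 8.62 and 9.08. ABCB1, the efflux pump that exports dexamethasone, was at 1.71, 1.91 and 1.21 FPKM.

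A wider list of genes known to be induced through the receptor did not move as one. Of 40 genes besides those above 23 were tested, 10 higher, 10 lower and 3 neither in both libraries, with a median log2 difference of -0.03. Among all genes tested 44.9% were higher and 32.4% lower in both. With libraries scaled to sums of reads 8 of the 23 were higher and 11 lower, against 31.1% and 45.6% of all genes. limma called 0 of the 23, with 8 at an unadjusted p under 0.05, where 2008 of all 13852 genes were. voom called 4: MT2A higher, and DUSP1, ANGPTL4 and TXNIP lower, where 1.47% of all genes were called higher and 1.04% lower. MT2A, a metallothionein induced by glucocorticoids and metals, was at 98.9 FPKM in shControl, 216 in shUSP16-1 and 222 in shUSP16-2 (limma log2 difference 1.14, SE 0.10, adjusted p = 0.164; voom adjusted p = 7.61e-05). Its relative MT1X was at 2.72, 5.98 and 4.68 FPKM, and both libraries labelled shUSP16 were above shControl. Reads of the metallothioneins could be shared among near-identical copies, and MT1E had none.

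The 3 genes that voom called lower had similar differences. DUSP1, a phosphatase of MAP kinases and a classical receptor target, was at 26.8, 14.6 and 14.9 FPKM (limma log2 difference -0.82, SE 0.12, adjusted p = 0.243; voom adjusted p = 0.00558). ANGPTL4, an inhibitor of lipoprotein lipase, was at 12.5, 7.07 and 6.23 FPKM (voom adjusted p = 0.0123). TXNIP, chosen after its values were seen, was at 29.9, 12.7 and 21.0 FPKM, lowest in shUSP16-1. With limma over protein-coding genes only, MT2A, DUSP1 and ANGPTL4 passed, where 0.434% of genes did (0.154% higher and 0.28% lower) and 0 of the 7 tested target genes did. IGFBP1, PCK1, IRS2 and SCNN1G, textbook targets in liver or kidney, had 0 reads in all libraries.

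**Figure D4:**
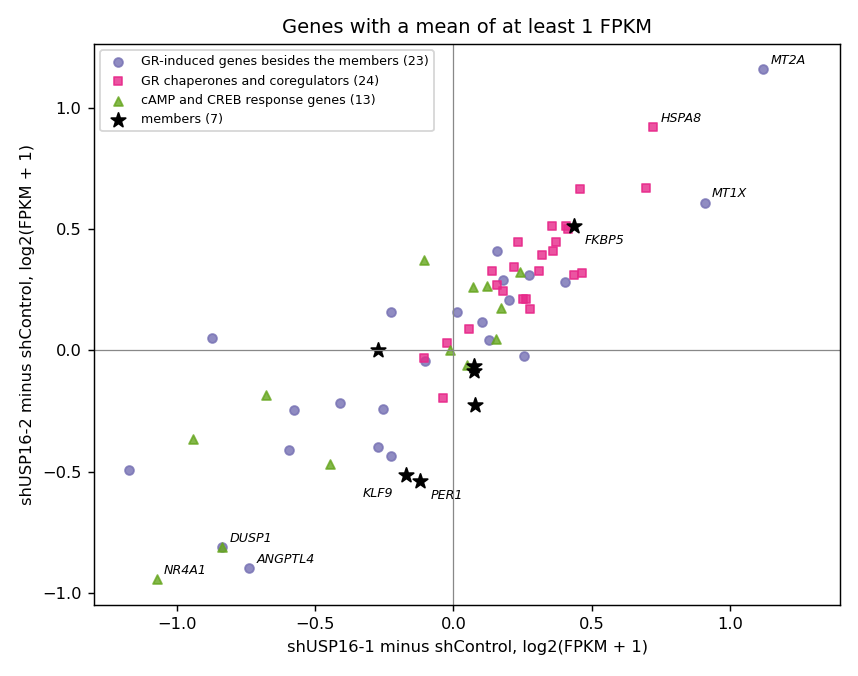
Difference from shControl on the log2(FPKM + 1) scale in shUSP16-1 (x axis) and shUSP16-2 (y axis) for each tested gene of 4 lists; both axes share the 1 control library, so the positions are not independent. The 7 target genes (stars) lie on several sides of 0 with FKBP5 upper right and KLF9 and PER1 lower left, while 21 of 24 chaperones and coregulators (squares) lie upper right.

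Genes repressed through the receptor were mostly near 0. Of 17 such genes, most of them inflammatory, 2 reached a mean of 1 FPKM, and CXCL1, CXCL8, CSF2, SELE, MMP1 and MMP3 had 0 reads in all 3 libraries. PTGS2, which encodes cyclooxygenase COX-2, was at 1.84 FPKM in shControl, 0.921 in shUSP16-1 and 0.857 in shUSP16-2 (limma log2 difference -0.59, SE 0.22, adjusted p = 0.333; voom adjusted p = 0.0471). CCL2, a monocyte chemokine, was at 1.25, 2.07 and 1.30 FPKM. With the deposited scaling, CCL2 was above shControl in both libraries labelled shUSP16 and PTGS2 below it; with sums of reads CCL2 was not above it in both.

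A list of cyclic AMP responsive genes and CREB pathway genes was split in direction. Isobutylmethylxanthine is known to raise cyclic AMP. Of 19 genes 13 averaged 1 FPKM or more and were tested, 5 higher and 5 lower in both. The 5 higher were the factors ATF1 and CREB1, the CREB coactivator CRTC1, and the phosphodiesterase genes PDE3B and PDE4D. The 5 lower were the responsive genes DUSP1, FOS, FOSB, NR4A1 and NR4A2. The split thus ran between kinds of gene on the list, which was not tested. Among all genes tested 44.9% were higher and 32.4% lower in both. With libraries scaled to sums of reads 3 of the 13 were higher and 7 lower, against 31.1% and 45.6% of all genes. limma called 0 of the 13. voom called 3 lower (DUSP1, FOSB and NR4A1), where 1.04% of all genes were. NR4A1, an orphan nuclear receptor switched on within minutes by many stimuli, was at 17.7, 7.89 and 8.72 FPKM (limma log2 difference -1.01, SE 0.13, adjusted p = 0.212; voom adjusted p = 0.000234). FOS was at 110, 68.4 and 96.6 FPKM and FOSB at 19.7, 9.79 and 15.1, both lowest in shUSP16-1. NR4A2 was at 1.81, 1.06 and 1.03 FPKM. PER1, described above, is also known as a cyclic AMP responsive gene, so its level does not report the receptor alone.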

How the data were processed

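Total RNA of 3 HGC-27 libraries was sequenced: 1 shControl and 2 labelled shUSP16, grouped by title. The authors deposited FPKM values for 58735 genes with gene length, per the file headers. The sources used here do not give aligner, counter or strand setting. Mouse builds (GRCm38, mm10) stand in the submitters' processing notes, whereas gene IDs, coordinates and exon lengths of the 10 genes equal those of human GENCODE release 29 on GRCh38. FPKM times length was a whole multiple of one step per library for all values (tolerance 0.01 reads), so whole reads were recovered. Their sums were 30131136 (shControl), 29530581 (shUSP16-1) and 31187845 (shUSP16-2), and the deposited scaling implied totals of 1.08, 1.01 and 0.994 times these, so shControl was scaled down most.

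Differences are of log2(FPKM + 1), which understates changes of low genes, over 13852 genes averaging 1 FPKM or more, tested with limma 3.58.1 (mean trend, R 4.3.3), with Benjamini-Hochberg adjustment over all of them and a threshold of 0.05. Only the 2 libraries labelled shUSP16 give the spread, and shControl is taken to vary as they do. Chi-square per degree of freedom between these 2 was 11.9 over 20974 genes, so they were counted as 2. Their titles, shUSP16-1 and shUSP16-2, do not say whether these are 2 hairpins or 2 cultures with 1 hairpin. The USP16 ratios to shControl were 0.683 and 0.952. Any difference between hairpins or in knockdown would be part of this spread, and so of the SDs, SEs and p-values. voom on recovered reads, with implied totals or sums of reads, was an alternative. Ratios carry 95% exact binomial intervals, and a floor of 3 reads was used. The fits were tested on simulated data. The members, gene lists and tests were chosen with earlier results of these data known. Named genes were the members, USP16, up to 4 tested genes per list whose smaller of the 2 library differences was largest, plus the most abundant, steroid receptors, and the cell type markers. Neighbours of NR3C1 were the nearest 5. Other genes were chosen after their values were seen. Some values are not reported here.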

Additional observations from a re-analysis of the deposited data

How the results depend on the processing

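Genes called numbered 0 with limma as reported, 13 with a minimum mean of 5 FPKM, 48 with protein-coding genes only, and 348 and 557 with voom on implied totals and on sums of reads. Of the 7 tested members 0 were called, and 1 (FKBP5) with voom on implied totals. Scaling to sums of reads moved the members lower in both from 2 to 6. With either library labelled shUSP16 left out, 2 to 4 were higher and 3 to 5 lower. ERRFI1 turned from 0.0050 to -0.085 with sums of reads and -0.10 with voom on them; the cause was not tested. With 1 library labelled shUSP16 left out, the log2 difference ranged from -0.066 to 0.076 for ERRFI1, -0.085 to 0.076 for TSC22D3, -0.27 to 0.00037 for SGK1 and -0.22 to 0.077 for CEBPD. FKBP5 stayed higher, and KLF9 and PER1 lower, in each alternative run. The full response element was in 0 of 20 member windows under both match rules. Only 0.00286% and 1.41% of all windows held it, so a count of 0 among so few windows says little.

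No paired analysis was possible because shControl has 1 library, which carries no replicate number. A quasi-likelihood count model on recovered reads was planned and not run, since the deposited unit is FPKM. Depth limits ZBTB16, NR3C1 and PDK4, which had 0 to 2 reads per library.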

Other observations

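The clock genes around PER1 were split in direction. Of 14 genes 13 were tested, 4 higher and 3 lower than shControl in both libraries labelled shUSP16, with a median log2 difference of 0.03. Among all genes tested 44.9% were higher and 32.4% lower in both. limma called 0 of the 13. With libraries scaled to sums of reads 2 of the 13 were higher and 5 lower, against 31.1% and 45.6% of all genes, with a median of -0.06. In shUSP16-1 alone 9 were higher and 4 lower, and in shUSP16-2 alone 5 were higher and 8 lower. voom called 0 with implied totals and 2 lower (BHLHE40 and BHLHE41) with sums of reads, where 3.02% of all genes were called lower. NR1D2, a repressor of the clock, was at 17.2, 17.4 and 18.0 FPKM in shControl, shUSP16-1 and shUSP16-2. PER3, the relative of PER1, was at 13.6, 18.7 and 14.9 FPKM. BHLHE40, a repressor that opposes CLOCK, was at 16.3, 12.2 and 11.7 FPKM (limma log2 difference -0.42, SE 0.12, adjusted p = 0.292; voom adjusted p = 0.0916, and 0.0271 with sums of reads), and BHLHE41 at 4.55, 3.16 and 2.62 FPKM (voom adjusted p = 0.0427 with sums of reads). TEF, a clock output factor, was at 3.73, 6.10 and 4.63 FPKM.

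Relatives of the target genes were read where some targets were not. PDK1, PDK2 and PDK3 were at 3.02, 1.88 and 2.56 FPKM in shControl, 2.24, 2.61 and 1.85 in shUSP16-1 and 2.35, 2.26 and 1.84 in shUSP16-2, beside no read for PDK4. CEBPB and CEBPG were at 48.7 to 52.3 and 73.8 to 81.0 FPKM, above CEBPD in every library. KLF16 was at 12.5, 17.9 and 15.4 FPKM, beside 17.6, 15.5 and 12.02 for KLF9, so the 2 relatives lay on opposite sides of shControl. TSC22D1 was at 14.2 to 15.6 FPKM and SGK3 at 3.39 to 3.90 FPKM. Of 18 relatives 14 were tested, 4 higher and 6 lower in both libraries labelled shUSP16, with a median log2 difference of -0.0092. Among all genes tested 44.9% were higher and 32.4% lower in both. Neither limma nor voom called any of the 14. In shUSP16-1 alone 7 of the 14 were higher and 7 lower, and in shUSP16-2 alone 5 were higher and 9 lower.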
